A study of Mus musculus with 16 samples.

Results

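The miR-125 family was represented on the arrays by 5 of the 611 mouse miRNAs with probes, namely every row named miR-125a or miR-125b, with any arm or locus suffix. They were miR-125a-5p, miR-125a-3p, miR-125b-5p, miR-125b-1-3p and miR-125b-2-3p. MiR-125a-5p and miR-125b-5p were detected on all 16 arrays and miR-125a-3p on 14, while miR-125b-1-3p and miR-125b-2-3p were detected on 0 arrays. Of the 5 members, 3 were tested for differences between groups, because only miRNAs that all arrays of some group detected were tested. This filter retained 266 of the 611 miRNAs.

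MiRNA expression was profiled in whole lungs of BALB/c mice aged 8 to 12 weeks in a model of allergic airways disease, with 1 array per sample. All mice received 1 mg Alhydrogel, an aluminium hydroxide adjuvant, by intraperitoneal injection on day 0, and endpoints followed 24 hours after the challenge of day 15. PBS/PBS mice (2 arrays) received the adjuvant without allergen and intranasal PBS, and PBS/OVA mice (4 arrays) received the adjuvant without allergen and intranasal challenges with 10 μg ovalbumin (OVA, an egg white protein used as the allergen) on days 12, 13, 14 and 15. OVA/OVA mice (6 arrays) were sensitised with 50 μg OVA in the adjuvant and received the same challenges. OVA/OVA DEX mice (4 arrays) were treated like OVA/OVA mice and additionally received 3 mg/kg dexamethasone (DEX, a synthetic glucocorticoid) from day 11, every second day. The labels give PBS as the challenge of PBS/PBS mice, whereas the methods of the study state that all mice were challenged with OVA. The labels were followed. Nothing in the labels states that the samples of a group came from separate animals, so the p-values measure the spread between these samples. The study gives the same number of animals for every group, which the arrays used here match in OVA/OVA only.

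MiRNAs are short RNAs that guide Argonaute proteins to messenger RNAs, mainly by pairing of the seed, the bases near their 5′ end, and thereby lower protein output. The arms of a hairpin precursor give the 5p and 3p miRNAs, of which the guide arm accumulates and the passenger arm is largely degraded. MiR-125 is the mammalian relative of lin-4 of Caenorhabditis elegans and is known as a regulator of blood cell development, of macrophage activation and of cell differentiation.

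The sequences below show which members share a seed, with the seed, bases 2 to 8 from the 5′ end, in capitals. MiR-125a-5p, miR-125b-5p and miR-351-5p, which is no member of the family by name, share a seed, whereas each of the 3p arms has a seed of its own.
miR-125a-5p: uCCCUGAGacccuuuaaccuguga
miR-125b-5p: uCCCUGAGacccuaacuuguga
miR-351-5p: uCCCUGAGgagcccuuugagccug
miR-125a-3p: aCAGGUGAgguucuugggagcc
miR-125b-1-3p: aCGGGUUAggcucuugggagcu
miR-125b-2-3p: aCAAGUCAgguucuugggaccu

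These are the RefSeq mature sequences of build GRCm38.p6, and all 5 members were matched by name. MiR-125a-5p and miR-125b-5p had their first 13 bases in common and were 3 single-base changes, insertions or deletions apart. Both were measured on the arrays by separate probes, and whether a probe of one also binds the other was not tested. MiR-6367 and miR-6394, which carry the same seed in the RefSeq table, were not analysed here. MiR-125a lies on chromosome 17 (Mir125a, chr17:17830812-17830879, plus strand) within the bounds of the protein-coding gene Spaca6. MiR-125b-5p is made from a pair of loci with the same mature sequence, which the arrays cannot separate. Mir125b-1 lies on chromosome 9 (chr9:41581926-41582002, plus strand) within the non-coding RNA gene Mir100hg, and Mir125b-2 lies on chromosome 16 (chr16:77646273-77646343, plus strand), where the annotation table lists no other gene. Each locus is accompanied by a miR-99 or miR-100 gene and a let-7 gene on the same strand. Mir99b and Mirlet7e lie 555 and 368 bases from Mir125a. Mir100 and Mirlet7a-2 lie 50422 and 45115 bases from Mir125b-1, and Mir99a and Mirlet7c-1 lie 47273 and 46523 bases from Mir125b-2.

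Signals are given as log2 of the summed probe signal of a miRNA after each array was scaled to a common 75th percentile over 206 miRNAs detected on all arrays. Differences are on the same log2 scale, tested with limma and adjusted by the method of Benjamini and Hochberg for 266 miRNAs. Members are described as called where the adjusted p was under 0.05 and the groups differed by 2-fold or more. The unscaled percentile was 2609 and 3169 on the PBS/PBS arrays and between 1700 and 2253 in PBS/OVA. In OVA/OVA it lay between 814 and 2375, and with DEX between 1408 and 1915, so the PBS/PBS arrays were the brightest and the dimmest arrays were OVA/OVA arrays. Both PBS/PBS arrays lay on slide 1, while the other groups were split between slides 1 and 2. Epithelial (5 of 5), endothelial (2 of 2) and fibroblast (4 of 4) marker miRNAs of the lung all passed the detection filter. Since whole lung was profiled, fewer cells of a type and less RNA per cell cannot be told apart.

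MiR-125b-5p, one of the guide arms and the product of both miR-125b loci, had its lowest level in OVA/OVA. Its signal was 12.75 and 12.77 on the PBS/PBS arrays, and 12.66, 12.76, 12.74 and 12.64 in PBS/OVA. In OVA/OVA it ranged from 12.24 to 12.54 with a median of 12.44. In OVA/OVA DEX it was 12.84, 12.74, 12.66 and 12.52. All 6 OVA/OVA arrays thus lay below all PBS/PBS and PBS/OVA arrays, whereas the brightest OVA/OVA array lay above OVA/OVA DEX replicate 4. Of all miRNAs tested, 51.5% did not overlap, in either direction, between OVA/OVA and PBS/PBS, and 19.9% between OVA/OVA and PBS/OVA. The group means were 12.76 ± 0.015 (SD, n = 2) in PBS/PBS, 12.70 ± 0.056 (n = 4) in PBS/OVA, 12.69 ± 0.133 (n = 4) in OVA/OVA DEX and 12.42 ± 0.104 (n = 6) in OVA/OVA. The first 3 groups of this order did not differ from their neighbours beyond their spread, although OVA/OVA DEX and PBS/OVA were set side by side by their ranges only.

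MiR-125b-5p differed by -0.33 between OVA/OVA and PBS/PBS (SE 0.0901, adjusted p = 0.0182), which corresponds to 0.794 times the PBS/PBS signal. OVA/OVA lay at 0.825 times the PBS/OVA level, a difference of -0.28 (SE 0.0712, adjusted p = 0.0105). A difference of -0.27 separated OVA/OVA from OVA/OVA DEX (SE 0.0712, adjusted p = 0.00784), or 0.832 times. These comparisons share the OVA/OVA arrays and are therefore not independent, and none of the differences reached 2-fold. On slide 1 alone the differences were -0.41 from PBS/PBS, -0.40 from PBS/OVA and -0.33 from OVA/OVA DEX, and on slide 2 alone those from PBS/OVA and OVA/OVA DEX were -0.19 and -0.24, with no adjusted p under 0.05 at 2 to 4 arrays per group. Without PBS/PBS replicate 1 or replicate 2, the difference from PBS/PBS was -0.34 or -0.32 and no longer passed (adjusted p = 0.125 and 0.143). With quantile normalization the differences were -0.22, -0.16 and -0.07 (adjusted p = 0.0583, 0.0822 and 0.352), beside medians of -0.19, -0.12 and -0.15 over all miRNAs.

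**Figure D1:**
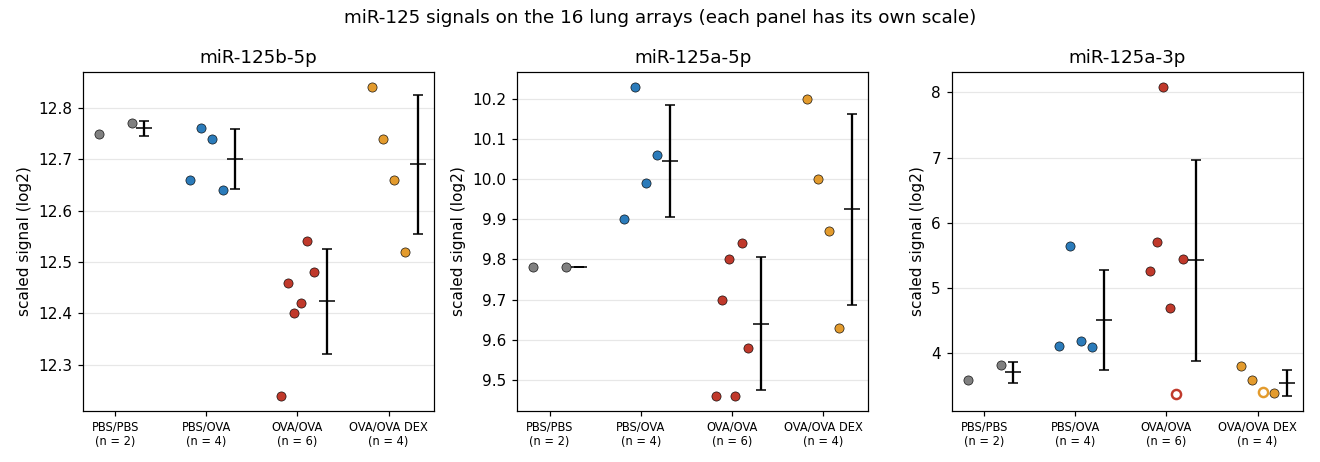
Scaled signal (log2, own scale in each panel) of miR-125b-5p, miR-125a-5p and miR-125a-3p on each of the 16 arrays by group, with the group mean and SD beside the points and open circles for arrays on which the miRNA was not detected. All 6 OVA/OVA arrays lie below the PBS/PBS and PBS/OVA arrays for miR-125b-5p and below the PBS/OVA arrays for miR-125a-5p, and miR-125a-3p spans 3.37 to 8.08 within OVA/OVA. Of all miRNAs tested, 51.5% do not overlap between OVA/OVA and PBS/PBS and 19.9% between OVA/OVA and PBS/OVA.

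MiR-125b-5p was read by 2 probes of 10 spots each, and both were lower in OVA/OVA. The brighter probe gave scaled signals of 4060 to 5100 in OVA/OVA, compared to 5840 and 5900 on the PBS/PBS arrays, 5370 to 6100 in PBS/OVA and 4530 to 6100 after DEX treatment. The dimmer probe gave 767 to 867, compared to 1030 and 1080, 825 to 1040 and 928 to 1350. The OVA/OVA arrays lay below all PBS/PBS and PBS/OVA arrays with the brighter probe and below all PBS/PBS and OVA/OVA DEX arrays with the dimmer one. The probes disagreed on OVA/OVA DEX replicate 4, which had the highest signal of all arrays with the dimmer probe (1350) and the lowest outside OVA/OVA with the brighter one (4530). The overlap of OVA/OVA with OVA/OVA DEX in the summed signal came from this array.

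**Figure D2:**
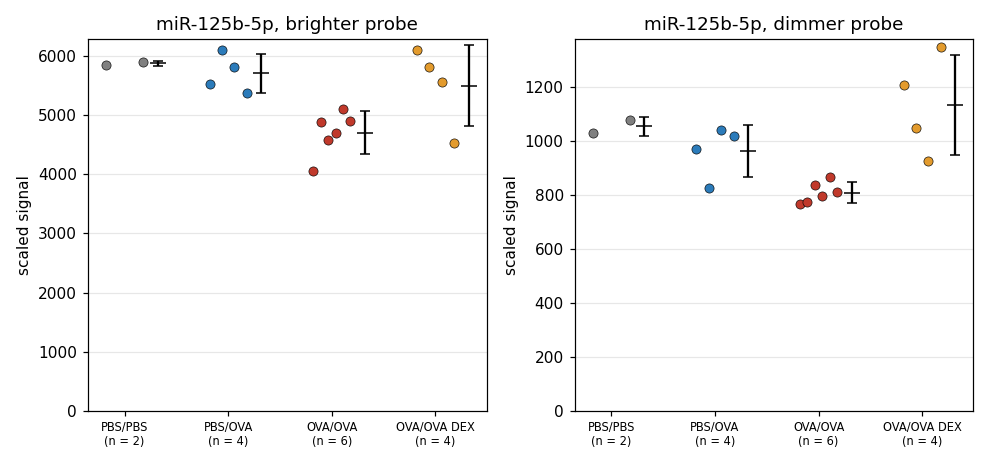
Scaled signal (linear, from 0) of the 2 probes of miR-125b-5p on each array by group, with the group mean and SD beside the points. OVA/OVA arrays lie at 4060 to 5100 with the brighter probe and at 767 to 867 with the dimmer probe, and OVA/OVA DEX replicate 4 is the lowest of its group with the former and the highest with the latter.

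MiR-125a-5p, the guide arm of Mir125a, was lower in OVA/OVA than in PBS/OVA and OVA/OVA DEX, while the difference from PBS/PBS did not pass. The signal was 9.78 on both PBS/PBS arrays and 9.90, 10.23, 9.99 and 10.06 in PBS/OVA. In OVA/OVA it ranged from 9.46 to 9.84 with a median of 9.64, and in OVA/OVA DEX it was 10.20, 10.00, 9.87 and 9.63. All OVA/OVA arrays lay below all PBS/OVA arrays. The PBS/PBS arrays fell within the OVA/OVA range, and OVA/OVA DEX replicate 4 did so as well. By mean signal the order was PBS/OVA (10.05 ± 0.142, SD, n = 4), OVA/OVA DEX (9.93 ± 0.241, n = 4), PBS/PBS (9.78 ± 0.006, n = 2) and OVA/OVA (9.64 ± 0.164, n = 6). No pair of neighbours in this order that was compared passed the test, and PBS/OVA and OVA/OVA DEX overlapped in range.

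The difference of miR-125a-5p between OVA/OVA and PBS/OVA was -0.41 (SE 0.113, adjusted p = 0.0175), or 0.755 times the PBS/OVA signal. The difference from OVA/OVA DEX was -0.28 (SE 0.113, adjusted p = 0.0475), or 0.821 times. The difference from PBS/PBS was -0.14 (SE 0.143, adjusted p = 0.469), with a 95% interval from -0.45 to 0.17. It passed against PBS/PBS when all miRNAs entered the percentile (-0.67, adjusted p = 0.0212), without scaling (-1.24, adjusted p = 0.0183) and with control spot scaling (-0.86, adjusted p = 0.00232), under which the median of all miRNAs was -0.56, -1.11 and -0.74. Both probes gave the same direction, with differences from PBS/OVA of -0.38 and -0.41 and no overlap of the arrays. Within slide 1 the differences from PBS/OVA and OVA/OVA DEX were -0.53 and -0.34 and within slide 2 they were -0.31 and -0.26, with no adjusted p under 0.05. The comparison with OVA/OVA DEX lay at the threshold. With slide as a block it was -0.29 and no longer passed (adjusted p = 0.0562). It was also lost, with adjusted p between 0.0506 and 0.18, when any 1 array was left out other than PBS/OVA replicate 2, OVA/OVA replicate 3 or 5, or OVA/OVA DEX replicate 4, and the difference was -0.19 without OVA/OVA DEX replicate 1.

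MiR-125a-3p, the other arm of the same hairpin, was dim and was higher in OVA/OVA than in OVA/OVA DEX. Its signal was 3.59 and 3.81 in PBS/PBS, 4.11, 5.65, 4.18 and 4.09 in PBS/OVA, and 3.80, 3.58, 3.40 and 3.38 in OVA/OVA DEX. In OVA/OVA it was 5.26, 5.70, 8.08, 4.69, 3.37 and 5.45. It was not detected on OVA/OVA replicate 5 or OVA/OVA DEX replicate 3. In OVA/OVA 5 of 6 arrays thus exceeded all OVA/OVA DEX arrays, while replicate 5 was lower than every other array of the 16. The difference of miR-125a-3p from OVA/OVA DEX was 1.89 (SE 0.653, 3.70-fold, adjusted p = 0.0263), and this was the only call among the members. Scaled signals were 10.4 to 13.9 in OVA/OVA DEX, and 10.4 and 10.5 on the arrays without detection. The fold is therefore relative to a level near that of undetected arrays. The SD was 1.544 in OVA/OVA (n = 6) and 0.194 in OVA/OVA DEX (n = 4), while the fit used a common spread for all groups. The differences from PBS/PBS and PBS/OVA were 1.73 (SE 0.826, adjusted p = 0.132) and 0.92 (SE 0.653, adjusted p = 0.285).

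The signal of miR-125a-3p was uneven between its probes. It was read by 4 probes of 5 spots each, and on OVA/OVA replicate 3 the brightest probe gave a scaled signal of 248 and the other 3 together 23.5. The brightest probe gave 21.2, 42.1, 13.8, 10.3 and 36.7 on OVA/OVA replicates 1, 2, 4, 5 and 6, and 9.61 to 11.9 in OVA/OVA DEX. The other 3 probes together gave 0.0324 to 23.5 in OVA/OVA, compared to -1.33 to 2.32 after DEX treatment. Without OVA/OVA replicate 3 the difference from OVA/OVA DEX was 1.36 (adjusted p = 0.024), and without the brightest probe on all arrays it was 1.91 (adjusted p = 0.0122). In the latter fit all OVA/OVA DEX arrays and OVA/OVA replicate 5 lay under the floor of 2.61 and were raised to it. The size of that difference and its p therefore depend on the floor, and they do not show that the call holds without the brightest probe. The call was lost without OVA/OVA DEX replicate 2, 3 or 4 (adjusted p = 0.0527, 0.0525 and 0.0544), and normexp background correction gave 0.45 (adjusted p = 0.315). Against PBS/PBS, miR-125a-3p was called without OVA/OVA replicate 5 (2.14, adjusted p = 0.0359), and the difference was 1.20 without OVA/OVA replicate 3 (adjusted p = 0.133) and 0.87 with array brightness as a covariate (adjusted p = 0.687). Against PBS/OVA it was 0.39 without OVA/OVA replicate 3 (adjusted p = 0.522) and 0.21 without the brightest probe (adjusted p = 0.767). On slide 1 alone the difference from OVA/OVA DEX was 1.89 (adjusted p = 0.0387) and on slide 2 alone it was 1.91 (adjusted p = 0.276).

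**Figure D3:**
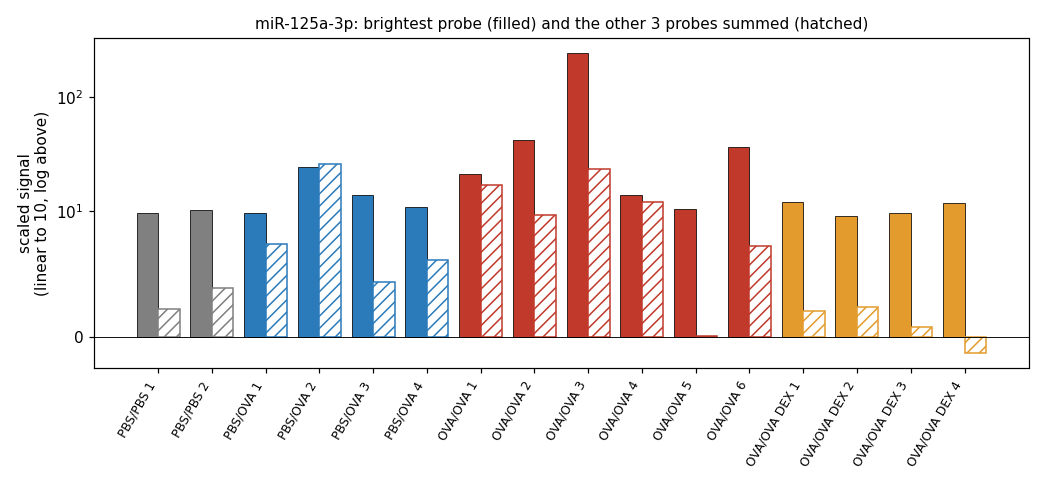
Scaled signal of miR-125a-3p on each of the 16 arrays, as the brightest probe (filled bars) and the other 3 probes summed (hatched bars), on an axis that is linear up to 10 and logarithmic above. OVA/OVA replicate 3 stands out with 248 in the brightest probe, and the OVA/OVA DEX arrays lie between 9.61 and 11.9 in that probe.

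The passenger arms of both miR-125b loci, miR-125b-1-3p and miR-125b-2-3p, gave no signal above background. Their scaled signals after background subtraction were -27.5 to -5.53 and -18.3 to 0.33 over the 16 arrays, below the floor of 2.61 that was applied to all signals, and they were not tested. MiR-351-5p, the seed relative, was detected on 6 of 16 arrays and was tested because both PBS/PBS arrays detected it. Its scaled signals were at most 10.4, and its differences of -0.18 from PBS/PBS, 0.07 from PBS/OVA and 0.80 from OVA/OVA DEX did not pass (adjusted p = 0.843, 0.929 and 0.207).

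Counted over the 3 members tested, OVA/OVA differed from PBS/PBS in 0 called members, from PBS/OVA in 0 and from OVA/OVA DEX in 1. Over all 266 miRNAs the shares called were 9.02%, 5.26% and 12.8%. At an unadjusted limma p under 0.05 the members were 1, 2 and 3, against 41.4%, 44.7% and 60.5% of all miRNAs. With the exact Mann-Whitney test 0 members were called in each of these comparisons, against 0.0%, 3.76% and 12.0% of all miRNAs, and with 6 arrays against 2 that test cannot go below p = 0.0714. By the Mann-Whitney adjusted p alone, whatever the fold, 0, 2 and 1 members passed, against 0, 53 and 114 of all 266 miRNAs. By the limma adjusted p alone, the members that passed were 1, 2 and 3, against 25.2%, 31.6% and 53.4% of all miRNAs. Of these, 1, 2 and 2 were lower in OVA/OVA, against 12.0%, 16.9% and 32.3% of all miRNAs. The groups did not overlap for 1, 2 and 0 members, against 51.5%, 19.9% and 31.2%. The median difference of the members was -0.14, -0.28 and -0.27, compared to -0.02, -0.04 and -0.09 over all miRNAs tested. With 3 members these shares are a description only.

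No member passed the test between the remaining groups. In OVA/OVA DEX compared to PBS/PBS, 0 of 3 members were called, and 0.0% of all miRNAs passed either the call or the adjusted p alone. The differences were -0.07 for miR-125b-5p (95% interval -0.27 to 0.14), 0.15 for miR-125a-5p (-0.18 to 0.47) and -0.16 for miR-125a-3p (-2.05 to 1.72). Between PBS/OVA and PBS/PBS, 0 of 3 members were called, against 0.376% of all miRNAs by the call and 0.376% by the adjusted p alone. The differences were -0.06 for miR-125b-5p (-0.26 to 0.15), 0.27 for miR-125a-5p (-0.06 to 0.59) and 0.81 for miR-125a-3p (-1.08 to 2.69). In both comparisons 0 members had an unadjusted limma p under 0.05, against 6.77% and 4.14% of all miRNAs. The exact Mann-Whitney test called 0 members and 0.0% of all miRNAs in both, as it must with 4 arrays against 2, where p cannot go below 0.133. For miR-125a-5p and for miR-125a-3p the 4 PBS/OVA arrays had higher signals than both PBS/PBS arrays, and 18.8% of all miRNAs did not overlap between these groups. The sign for miR-125a-5p turned under other scalings, with PBS/OVA at -0.03 and OVA/OVA DEX at -0.17 relative to PBS/PBS when all miRNAs entered the percentile, and at -0.31 and -0.66 without scaling.

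The ratio of miR-125a-5p to miR-125b-5p on 1 array does not depend on the scaling factor of the array and shows whether the guide arms changed unequally. The log2 ratio was -2.96 and -2.99 in PBS/PBS, -2.76, -2.52, -2.75 and -2.58 in PBS/OVA, and -2.63, -2.74, -2.79 and -2.89 in OVA/OVA DEX. In OVA/OVA it ranged from -2.96 to -2.60. The PBS/PBS arrays lay at the low end, where OVA/OVA replicate 4 also reached -2.96, and the other groups overlapped with each other. The ratio in OVA/OVA differed by 0.19 from PBS/PBS, by -0.13 from PBS/OVA and by -0.02 from OVA/OVA DEX. Two-sided exact permutation tests gave p = 0.0714, 0.138 and 0.819, and 0.173, 0.173 and 0.819 after adjustment over 5 comparisons. OVA/OVA DEX and PBS/OVA exceeded PBS/PBS by 0.21 and 0.32 (exact permutation p = 0.133 and 0.0667, adjusted p = 0.173 for both), and 4 arrays against 2 cannot give a p below 0.0667. On slide 1 alone the differences were 0.21, -0.13, -0.01, 0.22 and 0.34 in the same order, and on slide 2 alone OVA/OVA differed by -0.12 from PBS/OVA and by -0.02 from OVA/OVA DEX.

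**Figure D4:**
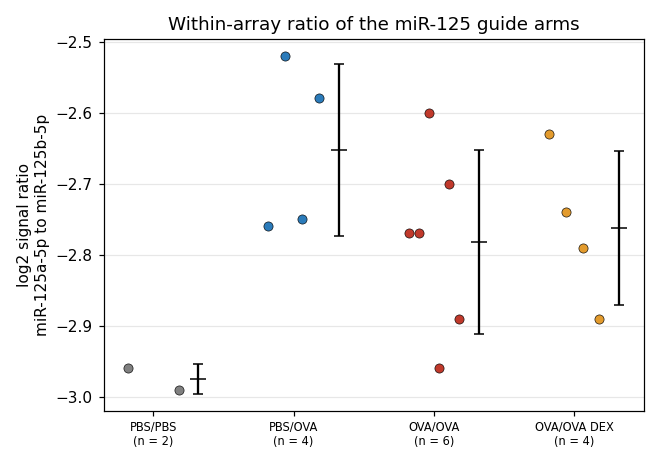
Log2 ratio of the signals of miR-125a-5p and miR-125b-5p within each array, by group, with the group mean and SD beside the points; the level of the ratio also reflects probe brightness, so only differences between groups can be read. The PBS/PBS arrays lie at -2.96 and -2.99, and the arrays of the other groups lie between -2.96 and -2.52.

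The miRNAs encoded beside the miR-125 genes were examined next, of which 8 arms were on the array and 6 were tested. The other arms, miR-99b-3p and let-7c-1-3p, were detected on 4 and 0 arrays. At an adjusted p under 0.05, 1 of the 6 was lower in OVA/OVA than in PBS/PBS (12.0% of all miRNAs tested), 3 were lower than in PBS/OVA (16.9%) and 2 were lower than in OVA/OVA DEX (32.3%), and 0 were higher. Their median differences were -0.17, -0.26 and -0.23. None changed by 2-fold.

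MiR-100-5p, which is encoded beside miR-125b-1, was lower in OVA/OVA in all 3 comparisons. Its signal was 8.23 to 8.41 in OVA/OVA, compared to 8.60 on both PBS/PBS arrays, 8.55 to 8.68 in PBS/OVA and 8.47 to 8.62 after DEX treatment. All OVA/OVA arrays lay below all arrays of the other groups. The differences were -0.30, -0.31 and -0.26 (adjusted p = 0.00789, 0.000799 and 0.0016).

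MiR-99a-5p, which is encoded beside miR-125b-2, differed by -0.20 from PBS/PBS (adjusted p = 0.0928), -0.19 from PBS/OVA (adjusted p = 0.0493) and -0.20 from OVA/OVA DEX (adjusted p = 0.0238). MiR-99b-5p, which is encoded beside miR-125a, differed by -0.25 from PBS/OVA (adjusted p = 0.0374). Its differences from PBS/PBS and OVA/OVA DEX were -0.09 and -0.12 (adjusted p = 0.526 and 0.255). In this miRNA, as in miR-125a-5p, every PBS/OVA array exceeded both PBS/PBS arrays, and 18.8% of all miRNAs did not overlap between these groups. The differences of 0.16 for miR-99b-5p and 0.27 for miR-125a-5p did not pass (limma adjusted p = 0.997 for both). Let-7e-5p, the other neighbour of miR-125a, differed by 0.02 between these groups, which overlapped. The let-7 miRNAs of the clusters had differences of -0.12 to -0.38 and did not pass in any comparison (adjusted p = 0.0641 to 0.479). Let-7a-5p and let-7c-5p are also made from other loci, which the arrays do not separate.

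**Figure D5:**
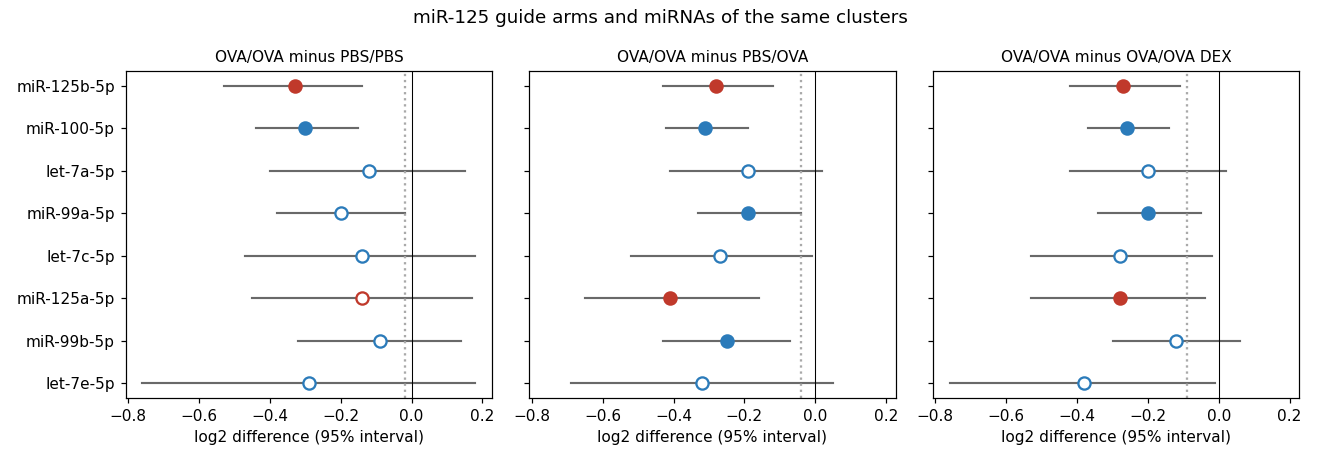
Log2 differences of OVA/OVA from each of the other groups, named above the panels, with 95% intervals from limma for the miR-125 guide arms (red) and the guide arms encoded beside them (blue); filled points have an adjusted p under 0.05, and the dotted line marks the median over all 266 miRNAs tested. MiR-125b-5p and miR-100-5p are filled in all 3 panels at -0.26 to -0.33, and let-7 miRNAs in none.

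The miRNAs most like the guide arms across the 16 arrays were ranked by Pearson's r among 204 other miRNAs detected on all arrays. The arrays of the groups were pooled, so r reflects the differences between groups and the shared scaling. For miR-125b-5p the highest values were found for miR-365-3p (r = 0.948), miR-99a-5p (r = 0.918) and miR-100-5p (r = 0.858), with a median of 0.296 over all 204. For miR-125a-5p they were found for miR-365-3p (r = 0.843), miR-199a-3p (r = 0.757) and miR-99a-5p (r = 0.751), with a median of 0.24. The guide arms correlated with each other at r = 0.796. MiR-365-3p differed by -0.28 from PBS/PBS, -0.30 from PBS/OVA and -0.26 from OVA/OVA DEX (adjusted p = 0.0313, 0.00511 and 0.00712). MiR-99b-5p, a neighbour of miR-125a, stood at rank 7 for miR-125a-5p (r = 0.721) and at rank 52 for miR-125b-5p (r = 0.621). Let-7e-5p, the other neighbour of miR-125a, went the other way, at rank 51 (r = 0.505) and rank 39 (r = 0.653). Let-7a-5p and let-7c-5p, encoded beside the miR-125b loci, stood at ranks 50 and 38 for miR-125b-5p and 46 and 24 for miR-125a-5p.

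Marker miRNAs of several cell types moved with the same comparisons. The counts that follow are of miRNAs at an adjusted p under 0.05, in the comparisons of OVA/OVA with PBS/PBS, with PBS/OVA and with OVA/OVA DEX in that order, in which 25.2%, 31.6% and 53.4% of all miRNAs passed and 12.0%, 16.9% and 32.3% passed as lower. Of 5 haematopoietic miRNAs, 3, 5 and 4 passed as higher. Their summed scaled signal was 32400 to 48100 in OVA/OVA, and it was 20500 to 23000 in PBS/PBS, 15700 to 23700 in PBS/OVA and 18200 to 26800 with DEX. Of 4 fibroblast miRNAs, 0, 2 and 3 passed as lower, with median differences of -0.20, -0.25 and -0.28. Their summed signal was 6000 to 7180 in OVA/OVA, and it was 7210 to 7600 in PBS/PBS, 7270 to 8130 in PBS/OVA and 7050 to 8440 with DEX. One of the fibroblast miRNAs, miR-199a-3p, is among the 3 miRNAs most like miR-125a-5p, and none is among the 3 most like miR-125b-5p. MiR-365-3p, which ranked first for both guide arms, is on none of the marker lists. The r of the other fibroblast miRNAs is not given here. Of 2 endothelial miRNAs, 0, 2 and 2 passed as lower, and their summed signal was 30600 to 40900 in OVA/OVA, compared to 41600 to 43000 in PBS/PBS, 38300 to 46700 in PBS/OVA and 40800 to 48600 with DEX. Of 3 tested striated muscle miRNAs, 2 passed as lower in each comparison, with median differences of -1.11, -0.84 and -0.88. The summed signal of the 4 striated muscle miRNAs on the array was 624 to 2130 in OVA/OVA. It was 2420 to 2590 in PBS/PBS, 1880 to 2740 in PBS/OVA and 1690 to 2880 with DEX. Of 2 red cell miRNAs and of 2 smooth muscle miRNAs, 0, 0 and 2 passed as lower, with median differences of -0.47, -0.40 and -1.05 for the former and -0.16, -0.04 and -0.38 for the latter. A further red cell miRNA that was planned as a marker did not enter the red cell values. The summed red cell signal was 37100 to 70600 in OVA/OVA, compared to 100000 to 136000 with DEX. Of 5 epithelial miRNAs 1, 1 and 1 passed as higher and 0, 0 and 1 as lower, and of 3 ciliated cell miRNAs 0, 0 and 1 passed as higher and 2, 0 and 2 as lower. The part of these shifts in the miR-125 values was not tested.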

How the data were processed

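Whole-lung total RNA was profiled on 16 Agilent 1-colour miRNA arrays on 2 slides. The authors deposited the spot intensity values of each array from Agilent Feature Extraction 10.7.3.1, per the submitters' processing notes, with local background subtracted and without scaling between arrays. The authors also deposited processed log2 values, whose array shifts are not described. These served as an alternative for miRNAs matched within 0.15, which included miR-125a-5p and miR-125b-5p but not miR-125a-3p.

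Control and outlier-flagged spots were omitted, spots of a probe averaged and probes of a miRNA summed. Arrays were divided by their 75th percentile over 206 miRNAs detected on all arrays and multiplied by the median percentile, signals were raised to a floor of 2.61 where lower, and converted to log2. Group means over all 16 arrays were fitted with limma 3.58.1 in R 4.3.3. The fit was also run on simulated data for miRNAs detected on all arrays, with the same spread in every group. That simulation does not cover miR-125a-3p. Ratios were compared by exact permutation. Python 3.11.15, numpy 2.4.6, pandas 2.3.3 and matplotlib 3.10.9 were used.

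The members and the lists (cluster neighbours, cell type markers) were chosen with earlier results of these data known. MiRNAs were named if they were members, were encoded beside a member, shared the seed of the guide arms, or were among the 3 most correlated with a guide arm. Alternatives covered scaling, background correction, filters, floor, slide, replicate number, tests and single arrays. Normexp was run on median instead of mean spot signals, which departs from the plan. Control spot scaling, array brightness as a covariate, single slides and omission of the brightest miR-125a-3p probe were chosen after seeing the data. Array number limits the precision.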

Additional observations from a re-analysis of the deposited data

Results flagged for a closer look

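In PBS/OVA, miR-125a-3p was 5.65 on replicate 2, while the other 3 arrays of the group lay at 4.09 to 4.18. The gap to the nearest array was 0.939 of the range of the group, above the critical value of Dixon's test for 4 arrays. Of 12 groups of values checked in this way this was the only one, and chance gives about 1 in 20. On this array the brightest probe of miR-125a-3p gave 24.2 and the other 3 probes together 25.9, both above the other PBS/OVA arrays. Without it, the difference between OVA/OVA and PBS/OVA was 1.30 (limma adjusted p = 0.149), compared to 0.92 with it, 0.39 without OVA/OVA replicate 3 and 0.21 without the brightest probe.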

How the results depend on the processing

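The number of members called was 0, 0 and 1 in the comparisons of OVA/OVA with PBS/PBS, with PBS/OVA and with OVA/OVA DEX. Against PBS/PBS it was 2 without scaling, 1 with normexp, 1 with control spot scaling and 1 without the requirement of a 2-fold change. Against PBS/OVA it was 1 with control spot scaling and 2 without that requirement. Against OVA/OVA DEX it was 3 without that requirement, and 0 without scaling, with the total gene signal, quantile normalization, normexp, only miRNAs detected on all arrays, no detection filter, the deposited processed values, only the 2 groups in the fit, control spot scaling, array brightness as a covariate, slide 2 alone and the exact Mann-Whitney test. Leaving out each array in turn gave 0 to 1 against PBS/PBS and 0 to 1 against OVA/OVA DEX. MiR-125a-3p could not be used under the filter on all arrays or in the deposited processed values. Apart from the adjusted p alone and the Mann-Whitney test, shares of all miRNAs called under these alternatives are not given here.

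MiR-125b-5p was lower in OVA/OVA than in each other group under all 32 alternatives per comparison and in the fits of single slides, which are not among the 32 and in which neither guide arm passed. It no longer passed under 6, 4 and 2 of them in the order given above, and the differences ranged from -1.43 to -0.22, -0.91 to -0.16 and -0.93 to -0.07. MiR-125a-5p was also lower under all of them, passed against PBS/PBS under 3, ranged from -1.24 to -0.08, -1.03 to -0.33 and -0.95 to -0.19, and no longer passed under 2 of them relative to PBS/OVA and 20 relative to OVA/OVA DEX. Many of the 32 could change only the p of these guide arms and not the difference. These were other floors, filters, tests or groups fitted, omission of a miR-125a-3p probe, and omission of arrays of groups not compared. The 32 are therefore not separate checks of the direction. The scaling moved the median of all miRNAs as well. Against PBS/PBS that median was -1.11 without scaling and -0.74 with control spot scaling, and miR-125b-5p lay at -0.32 and -0.31 relative to it, compared to -0.31 as reported. With quantile normalization it lay at -0.02, -0.04 and 0.07 relative to the medians of -0.19, -0.12 and -0.15 in the 3 comparisons.

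Signs turned in differences that had not passed. Between OVA/OVA DEX and PBS/PBS, miR-125a-3p was 0.65 with normexp, and miR-125a-5p was -0.17 with the percentile over all miRNAs and -0.66 without scaling. Between PBS/OVA and PBS/PBS, miR-125a-5p was -0.03 and -0.31 under those scalings. The log2 ratio of miR-125a-5p to miR-125b-5p in OVA/OVA was -0.08 relative to PBS/PBS with quantile normalization and 0.05 relative to OVA/OVA DEX with normexp. The latter was -0.06 to 0.02 when each array was left out. The causes were not tested.

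Pairing by replicate number is not stated. Deviations from group means correlated at -0.594 to 0.377 (median -0.0106) for equal numbers and -0.538 to 0.682 (0.0363) otherwise. These overlap and cannot decide it. With the replicate block, miR-125b-5p was -0.35, -0.32 and -0.31 (adjusted p = 0.0486, 0.0215 and 0.0148), miR-125a-3p was 2.39 relative to OVA/OVA DEX (adjusted p = 0.0116), and the log2 ratio differed by 0.23, -0.12, -0.01, 0.25 and 0.36 in the 5 comparisons. Members called stayed 0, 0, 1, 0 and 0, while miR-125a-5p no longer passed against OVA/OVA DEX (-0.32, adjusted p = 0.06).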
